A study of Mus musculus with 43 samples.

Results

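The 10 genes described here encode the thioredoxin and peroxiredoxin system of the mouse brain, with nucleoredoxin (Nxn) and the thioredoxin-binding protein gene Txnip. They were taken by symbol from the gene rows of both deposited tables, 10 of 55804 rows in each. All 10 passed the minimum mean of 1 TPM (transcripts per 1000000, abundance per length with every library scaled to one total) and were among the 16776 genes tested in one table and the 17592 in the other. The set was selected on the folds between groups seen earlier in these same tables, with no threshold, so every fold, rank and adjusted p of a member describes the fit and supports nothing beyond it.

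The study asked whether inducers of the transcription factor NRF2 help in Alzheimer's disease, and sequenced brain RNA of 2 mouse models dosed by mouth with one of them, the oleanane triterpenoid CDDO-2P-Im. In the AppNLGF cohort, aged 6 months, wild type mice on vehicle gave 4 libraries, AppNLGF mice on vehicle 11 and AppNLGF mice on 2P-Im 13, and the model carries the App alleles NL-G-F/NL-G-F. In the APP/TAU cohort, aged 11 months, wild type mice on vehicle and APP/TAU mice on vehicle or on 2P-Im gave 5 libraries each, and the model carries APP V717I and TAU P301L. The compound was given at 30 µmol/kg, 3 times a week, for 4 weeks in AppNLGF and 2 weeks in APP/TAU mice, and the vehicle was 10% DMSO, 10% Chremophol EL (the labels' spelling) and PBS. The labels give no sex, strain, brain region, transgene promoter or dosing schedule of the wild type mice, and do not say that each library is a separate animal. The p-values then measure the spread between libraries.

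Thioredoxins are small proteins that reduce disulfides in other proteins and are themselves returned to the reduced state by thioredoxin reductase with NADPH. Peroxiredoxins remove hydrogen peroxide and lipid peroxides through a reactive cysteine, most of them with thioredoxin as the reductant, and sulfiredoxin repairs those that have been over-oxidised. NRF2 is known to bind antioxidant response elements near several of these genes, among them Txnrd1, Srxn1 and Prdx1, which is why the family is often read as a response to NRF2 inducers.

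The promoters are shown because the treatment addresses NRF2 and because the one member called in any comparison, Nxn, can be set beside the members that hold an NRF2-type element. RefSeq windows on GRCm38.p6 (250 bases before to 50 after a start) were matched by symbol for 9 members with 11 windows; Prdx6 had no entry. They were searched on both strands for TGACNNNGC and TGAGNNNGC, forms of the antioxidant response element, where either form stood in 27.8% of all 32851 windows (12.4% and 17.6% singly). Of the members' 11 windows 3 held one, near the share of all windows. These 3 windows belonged to Srxn1, Prdx1 and the second listed start of Txnrd1. The 250 bases before the start follow, 5′ to 3′ on the gene's strand, with matches in capitals.

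Srxn1, chr2:152105274-152105523, plus strand: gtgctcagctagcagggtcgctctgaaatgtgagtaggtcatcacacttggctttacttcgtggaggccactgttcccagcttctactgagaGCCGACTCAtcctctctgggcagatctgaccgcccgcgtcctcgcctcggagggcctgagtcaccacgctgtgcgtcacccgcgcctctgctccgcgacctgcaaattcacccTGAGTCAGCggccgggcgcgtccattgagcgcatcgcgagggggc

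Prdx1, chr4:116685349-116685598, plus strand: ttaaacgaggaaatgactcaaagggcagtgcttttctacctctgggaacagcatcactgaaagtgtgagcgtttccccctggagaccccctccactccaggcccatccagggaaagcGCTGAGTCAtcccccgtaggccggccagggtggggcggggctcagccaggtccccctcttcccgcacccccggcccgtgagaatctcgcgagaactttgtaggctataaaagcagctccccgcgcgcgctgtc

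Txnrd1, chr10:82858956-82859205, plus strand: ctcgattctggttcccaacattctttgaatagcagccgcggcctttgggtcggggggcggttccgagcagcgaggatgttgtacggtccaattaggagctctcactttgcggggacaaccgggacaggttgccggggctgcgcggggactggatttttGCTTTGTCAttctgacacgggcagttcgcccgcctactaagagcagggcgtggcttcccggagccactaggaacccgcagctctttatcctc

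Nxn, chr11:76399142-76399391, minus strand: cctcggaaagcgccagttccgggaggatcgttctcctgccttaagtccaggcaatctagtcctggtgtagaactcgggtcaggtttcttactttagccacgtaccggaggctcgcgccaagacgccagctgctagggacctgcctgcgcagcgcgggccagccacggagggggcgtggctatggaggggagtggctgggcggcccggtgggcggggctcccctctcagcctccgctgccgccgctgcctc

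The Srxn1 matches begin at -158 and -45 from the start, the Prdx1 match at -133 and the Txnrd1 match at -92; Srxn1 held another at 29 and Prdx1 another at 16 bases past the start. The Nxn window held neither form. The E-box CACGTG stood in 7.15% of all windows and in none of the members' windows. Only these exact letters were searched, so other forms of the E-box, also in the Txnip window, were not covered. Such matches describe letters only, and no data here measure binding.

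Per length and by gene row alone, Prdx5, Prdx2 and Prdx1 were the most abundant members and Nxn the least in every group. With the separate transcript rows described below added, Prdx6 was the highest in the AppNLGF cohort. Prdx5, a peroxiredoxin of mitochondria, peroxisomes and cytosol, was at 89.3 ± 6.9 TPM in wild type libraries at 6 months (SD, n = 4) and 99.6 ± 17 at 11 months (n = 5). Prdx2, a cytosolic peroxiredoxin prominent in neurons, followed at 76.0 ± 3.6 and 84.2 ± 18, and the ranges of these neighbours overlapped in all 6 groups. Prdx1, Prdx3, Txn1, Srxn1 and Prdx6 lay together between means of 26.7 and 33.9 TPM in the younger wild type group, where each overlapped the next. Txnrd1 was at 18.1 ± 1.4 and 21.6 ± 3.0, Txnip at 8.26 ± 1.8 and 10.3 ± 1.9, and Nxn at 3.64 ± 0.31 and 6.33 ± 1.1 TPM. By gene row, the highest 3 genes (Prdx5, Prdx2, Prdx1) and the lowest 3 (Txnrd1, Txnip, Nxn) were the same in all 6 groups. The order of those between them changed. The 2 tables were normalized separately, so levels are set side by side across cohorts without a test.

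**Figure D1:**
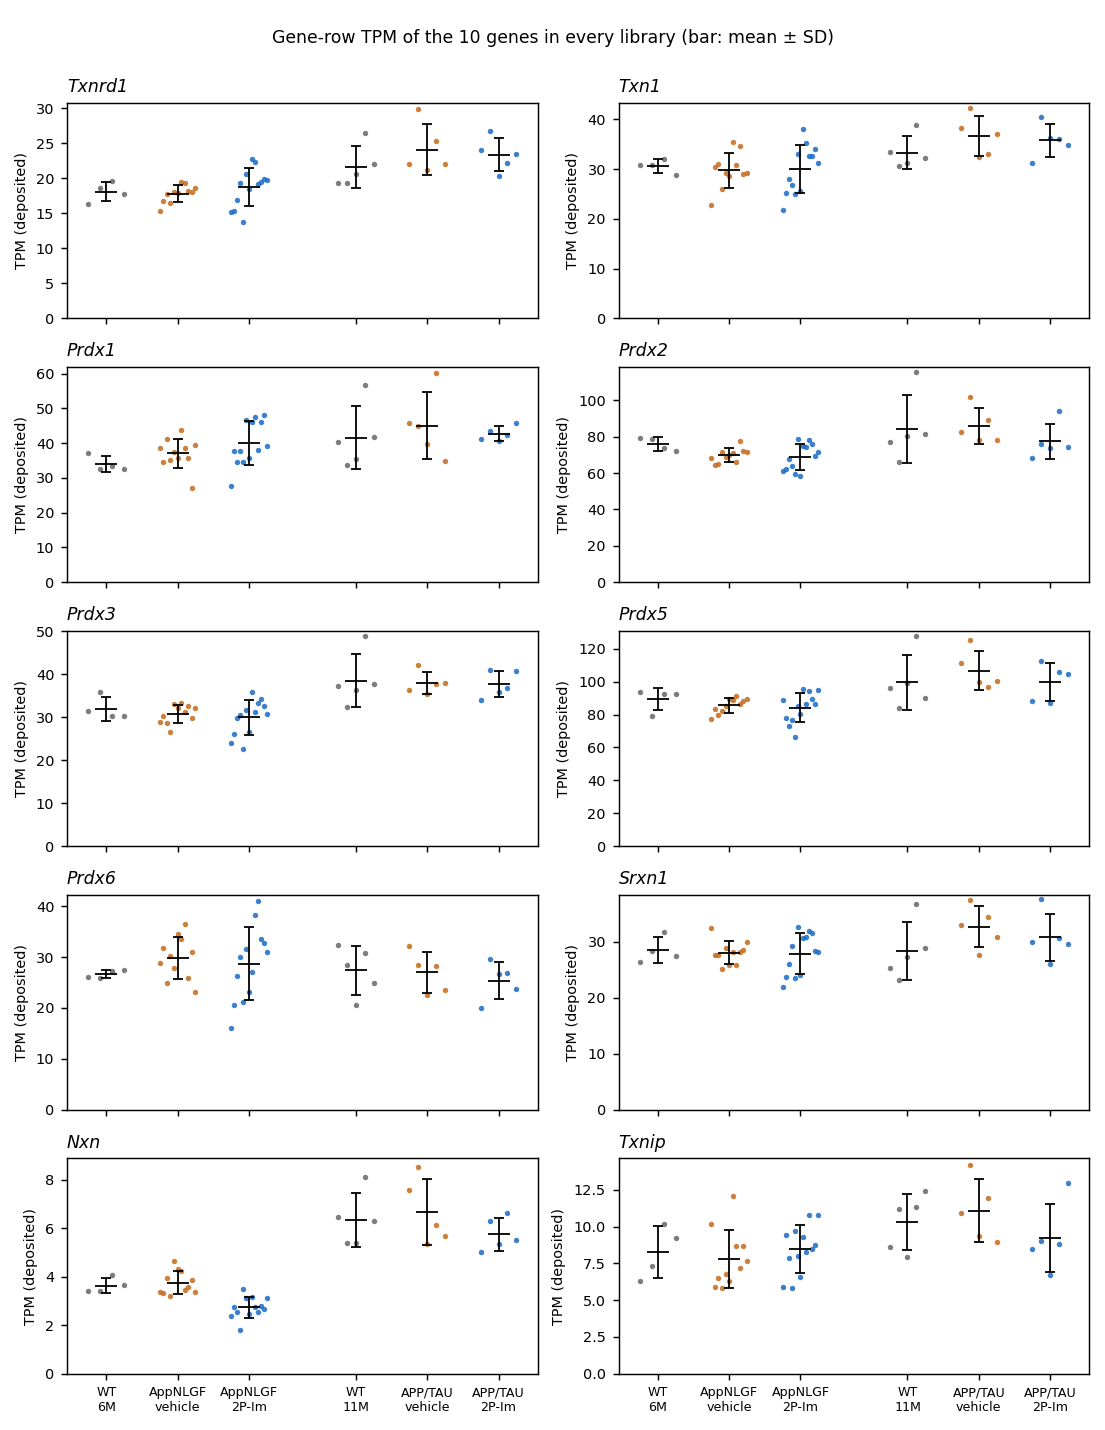
Deposited TPM of each of the 10 genes (one panel each) in every library, by group; points are libraries, bars the mean ± SD. Nxn is the gene whose AppNLGF 2P-Im points (1.80 to 3.5 TPM) sit almost wholly below the AppNLGF vehicle points (3.20 to 4.66 TPM).

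The most abundant gene row took between 15.5 and 40.0% of the TPM of a library. In the APP/TAU cohort its share was 24.9 to 34.5% in wild type, 15.5 to 29.1% in vehicle and 27.9 to 31.2% in 2P-Im libraries. TPM sum to a fixed total. As deposited, the median fold of all genes was 0.18 (log2) in APP/TAU vehicle against wild type and -0.19 in 2P-Im against vehicle. The part of this gene row in those medians was not tested. Every comparison is therefore also given after median-ratio scaling, which divides each library by its median ratio to the average library and brings those medians to 0.00. Folds are differences of log2(TPM + 1) ± SE from limma with all 3 groups of a table in one fit, and genes with an adjusted p under 0.05 over the whole table count as called. Summed TPM of 6 striatal markers were 243 to 457 across AppNLGF cohort libraries and 44.0 to 76.1 across APP/TAU cohort libraries, and those of 6 cerebellar markers 9.70 to 51.1 and 402 to 618, so the cohorts differ in tissue as well as in model, age and length of dosing. The 6 neuronal markers, which check the labelled tissue, summed to between 1512 and 2363 TPM across all libraries. Fewer cells of a type and less RNA per cell cannot be told apart in such samples.

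Across the 6 comparisons 1 member was called as deposited and none after median-ratio scaling. In AppNLGF 2P-Im against vehicle 1 of 10 members passed, against 0.0536% of all genes, and 0 of 10 after scaling, against 0.286%. No member was called in AppNLGF vehicle against wild type (0.280% of all genes, 0.691% after scaling), in AppNLGF 2P-Im against wild type (0.262% and 0.715%), in APP/TAU vehicle against wild type (0.0227% and 0.0284%), in APP/TAU 2P-Im against vehicle (0% and 0.0114%) or in APP/TAU 2P-Im against wild type (0.0227% and 0.0284%). The calls are limma's with Benjamini-Hochberg adjustment. With few genes called at all, a count of 0 members is near the background. In APP/TAU 2P-Im against vehicle, where no gene was called as deposited, 4719 genes (26.8%) had an unadjusted p below 0.05, and 1556 (8.84%) after scaling.

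**Figure D2:**
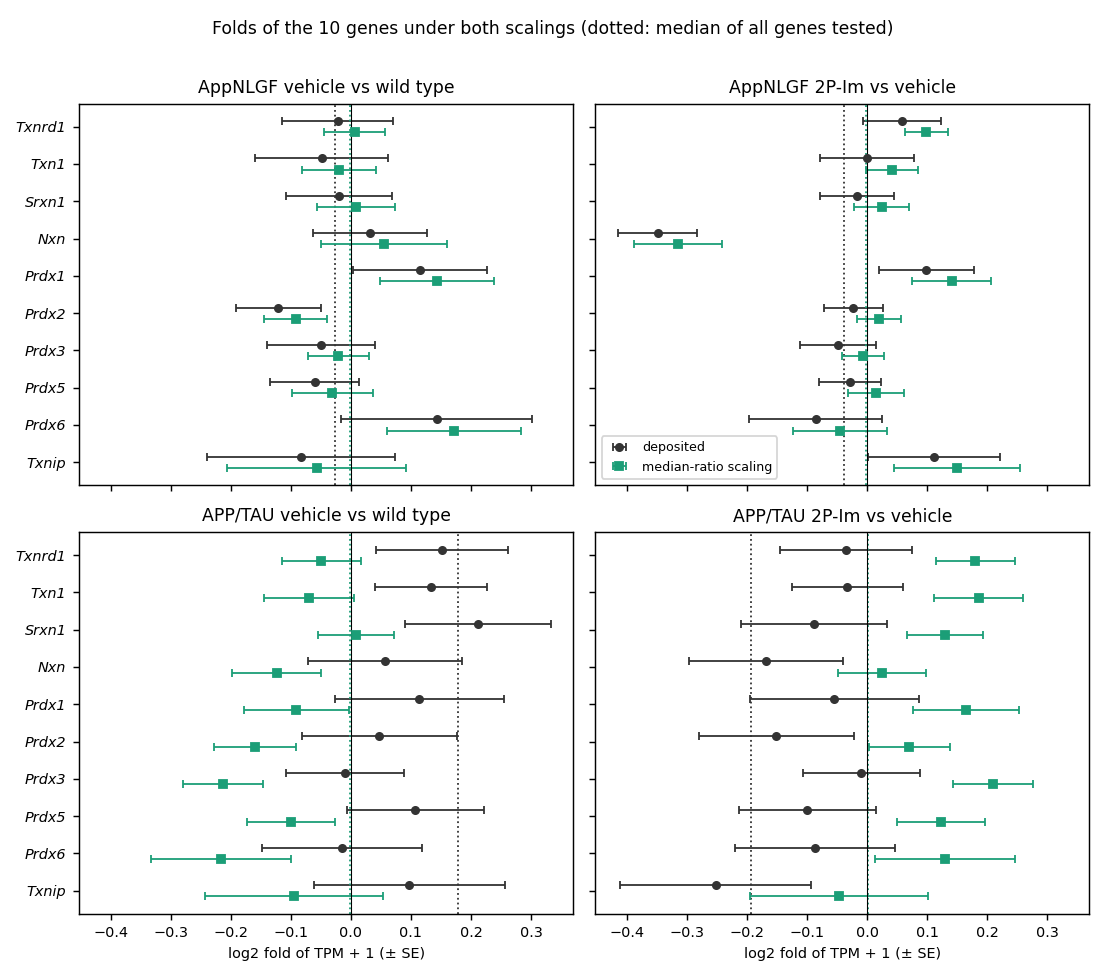
log2 folds (± SE) of the 10 genes in 4 comparisons (model vehicle against wild type and 2P-Im against vehicle in each cohort, one panel each), as deposited and after median-ratio scaling; the dotted lines mark the median fold of all genes tested. In APP/TAU 2P-Im against vehicle all 10 deposited folds lie below 0 and 9 of 10 scaled folds above it.

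Nxn encodes nucleoredoxin, a thioredoxin-fold protein that binds Dishevelled and restrains Wnt signalling. Its gene lies at chr11:76257198-76399140 on the minus strand (GRCm38, the build of all gene positions here), and its row was the 8th smallest p of the AppNLGF treatment comparison. The 4 wild type libraries read 3.40, 3.41, 4.07 and 3.66 TPM. The 11 AppNLGF vehicle libraries ran from 3.20 to 4.66 with a median of 3.58, and the 13 AppNLGF 2P-Im libraries from 1.80 to 3.5 with a median of 2.74. As deposited, 12 of the 13 treated libraries lay below every vehicle library and below every wild type library, and the remaining one, library 5, lay inside both ranges. After median-ratio scaling 11 of 13 lay below every vehicle library, and library 5 stood at 4.20 TPM, above all 4 wild type libraries.

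The means were 3.75 ± 0.48 TPM in vehicle (SD, n = 11) and 2.74 ± 0.43 in 2P-Im libraries (n = 13). The Nxn fold was -0.35 ± 0.07 (95% interval -0.48 to -0.21, adjusted p = 0.0254 by limma), and after scaling -0.31 ± 0.07 (-0.47 to -0.16, adjusted p = 0.0592). On the TPM + 1 scale this understates the change of a gene at this level; with a pseudocount of 0.1 in place of 1 the fold was -0.45. Against wild type the treated fold was -0.32 ± 0.09 (adjusted p = 0.293) and -0.26 ± 0.10 after scaling (adjusted p = 0.303). Vehicle against wild type gave 0.03 ± 0.09 and 0.06 ± 0.10, with groups that overlapped.

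The deposited Nxn call was lost when vehicle library 3, 5, 6, 7 or 10 or 2P-Im library 1 or 3 was left out, with adjusted p between 0.00846 and 0.0727 over the 28 single omissions and folds between -0.37 and -0.32. It was also lost without 2P-Im libraries 1 and 2 together (adjusted p = 0.0847). Libraries numbered 1 to 5, which on average held more of the most abundant RNA in both model groups, gave -0.40 ± 0.12 on their own and those numbered 6 and above -0.32 ± 0.07 (adjusted p = 0.114 and 0.332). In all 96 alternative settings of this comparison the fold stayed below 0, from -0.45 to -0.23.

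In the APP/TAU cohort dosed for 2 weeks, the Nxn groups overlapped. Wild type libraries read 6.47, 5.39, 5.38, 8.11 and 6.31 TPM, vehicle libraries 7.59, 8.54, 5.34, 6.13 and 5.67, and 2P-Im libraries 5.00, 6.29, 5.34, 6.62 and 5.51. The treated fold against vehicle was -0.17 ± 0.13 as deposited (adjusted p = 0.346) and 0.02 ± 0.07 after scaling (95% interval -0.13 to 0.18). The difference between the cohorts' treatment folds, fitted in one model over 16418 genes, was 0.34 ± 0.12 after scaling and 0.18 ± 0.13 as deposited, with adjusted p = 0.249 and 0.480, so it did not pass.

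A ratio of 2 genes of one library depends little on that library's scaling. On TPM + 1, the log2 ratio of Nxn to Txnrd1 was -2.04 ± 0.08 in wild type (n = 4), -1.99 ± 0.13 in AppNLGF vehicle (n = 11) and -2.39 ± 0.27 in AppNLGF 2P-Im libraries (n = 13). Of the treated libraries 11 of 13 lay below every vehicle library and 1 above. Against Txn1 the ratio was -2.69 ± 0.18 in vehicle and -3.04 ± 0.23 in treated libraries, with 8 of 13 below every vehicle. In the APP/TAU cohort Nxn over Txnrd1 was -1.63 ± 0.12 in wild type, -1.72 ± 0.18 in vehicle and -1.85 ± 0.18 in 2P-Im libraries (n = 5 each), with 3 of 5 treated libraries below every vehicle. The ratio to Txn1 was -2.31 ± 0.14 in APP/TAU vehicle and -2.45 ± 0.10 in treated libraries, with 1 of 5 below. A ratio also falls when the gene below the line rises. The scaled treated folds of Nxn, Txnrd1 and Txn1 were 0.02, 0.18 and 0.19 in APP/TAU. In AppNLGF they were -0.31, 0.10 and 0.04. As deposited the APP/TAU folds of Nxn, Txnrd1 and Txn1 were -0.17, -0.04 and -0.03, with an all-gene median of -0.19. Whether the lower APP/TAU ratios reflect lower Nxn or higher Txnrd1 and Txn1 thus depends on the scaling and was not tested.

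**Figure D3:**
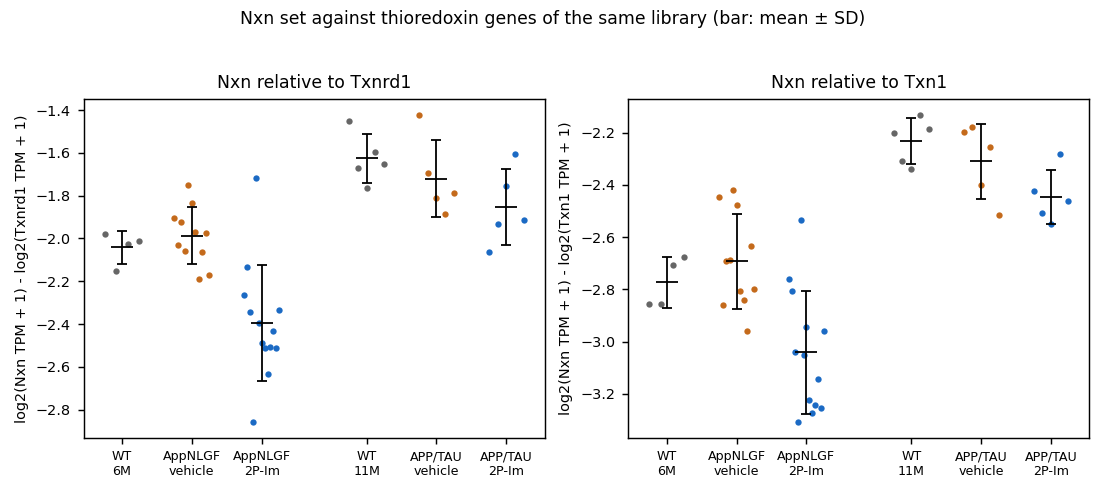
log2 ratio of Nxn to Txnrd1 and to Txn1 (on TPM + 1) in each library, by group, with mean ± SD. AppNLGF 2P-Im libraries average -2.39 for the ratio to Txnrd1 against -1.99 in vehicle, and the 3 APP/TAU cohort groups overlap.

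Markers of tissue composition moved with Nxn in the AppNLGF cohort. Within groups, Nxn (scaled) correlated across the 28 libraries with the mean of 6 ependymal and choroid plexus markers (r = 0.67), 6 oligodendrocyte markers (0.54), 6 thalamic and hypothalamic markers (0.52), 6 cerebellar markers (0.50) and 6 neuronal markers (-0.58). Over the 15 APP/TAU cohort libraries these were -0.29, 0.21, -0.24, 0.20 and -0.02. Astrocyte markers gave 0.37 and 0.59, and the other 5 lists lay between -0.17 and 0.16 in AppNLGF. These r describe libraries that share their scaling. All 6 thalamic and hypothalamic markers had treated folds below 0 in AppNLGF, none of them called, and their summed TPM was 44.6 to 94.0 in wild type, 26.7 to 145 in vehicle (median 56.0) and 28.2 to 103 in 2P-Im libraries (median 34.9). For ependyma and choroid plexus 5 of 6 folds lay below 0, none called, and the sums were 481 to 725, 7.42 to 682 and 11.1 to 614. The astrocyte and microglia lists each had 6 of 6 folds below 0 and the endothelial list 6 of 6 above, with none called. As deposited, 66.5% of all genes had folds in this comparison at or below that of Txn1 (0.00). The all-gene median was -0.04 as deposited and 0.00 after scaling. Folds below 0 were thus the common direction as deposited. After scaling, the median sums in vehicle and 2P-Im libraries were 54.9 and 41.1 TPM for thalamus and hypothalamus. They were 417 and 347 TPM for ependyma and choroid plexus, and 53.0 and 60.2 TPM for endothelium. A change of composition was not tested. No marker of these lists was at 0 in all libraries of a group.

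With the mean of each of the 11 marker lists in turn as a covariate, the Nxn fold stayed between -0.37 and -0.31 as deposited (adjusted p 0.000303 to 0.0441). After median-ratio scaling it was -0.35 to -0.23, and it was called with 5 of the 11 lists (adjusted p 0.00891 to 0.457). These covariates were chosen after seeing the data.

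**Figure D4:**
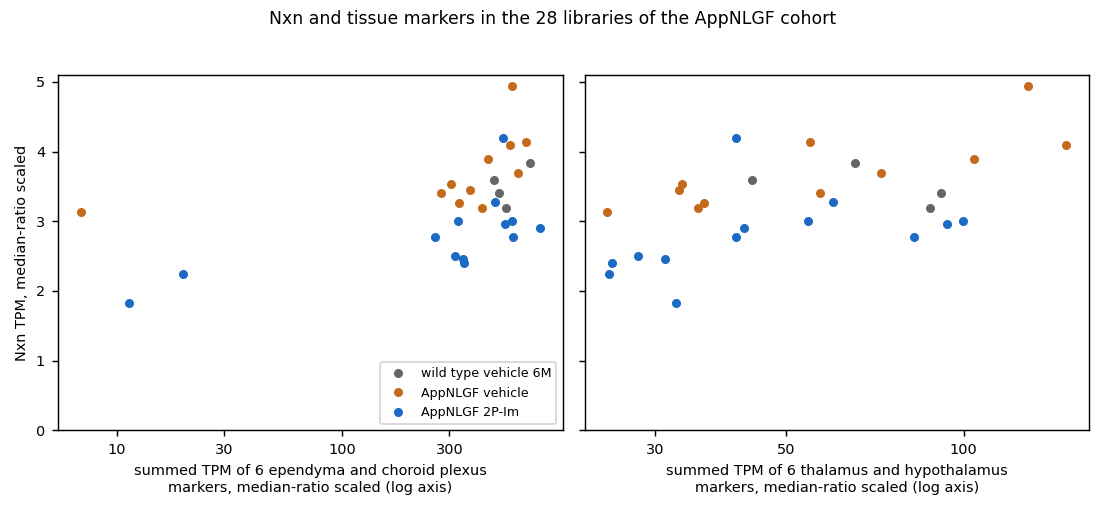
Median-ratio scaled Nxn TPM against the summed scaled TPM of 6 ependymal and choroid plexus markers and of 6 thalamic and hypothalamic markers (log horizontal axes) in the 28 AppNLGF cohort libraries, coloured by group. Of the 13 2P-Im points 11 lie below every vehicle point, and the libraries with the least choroid plexus signal, 6.92 TPM in vehicle and 11.3 TPM in 2P-Im, are the lowest in Nxn of their own groups.

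Txnrd1 (chr10:82833951-82897712, plus strand) encodes the cytosolic selenoprotein that reduces thioredoxin and is a standard NRF2 target. In AppNLGF libraries it ran from 16.3 to 19.6 TPM in wild type, 15.3 to 19.4 in vehicle (median 18.0) and 13.8 to 22.8 in 2P-Im (median 19.3). The treated fold was 0.06 ± 0.07 as deposited and 0.10 ± 0.04 after scaling (95% interval 0.03 to 0.17, adjusted p = 0.229 by limma); 5 of 13 scaled libraries lay above every vehicle library and the rest overlapped. In the APP/TAU cohort scaled values were 19.3, 23.4, 21.7, 20.8 and 22.6 TPM in vehicle and 25.8, 26.6, 22.9, 21.7 and 25.9 in 2P-Im libraries. That is a scaled fold of 0.18 ± 0.07 (0.04 to 0.32, adjusted p = 0.504) and a deposited one of -0.04 ± 0.11, so the sign depends on the scaling.

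Txn1 (chr4:57943373-57956411, minus strand) encodes cytosolic thioredoxin itself. Its AppNLGF groups overlapped almost wholly, at 28.8 to 32.1, 22.8 to 35.5 and 21.8 to 38.0 TPM, with a scaled treated fold of 0.04 ± 0.04 and a deposited one of 0.00 ± 0.08. In APP/TAU the scaled vehicle libraries read 33.7, 33.1, 33.1, 27.2 and 38.0 and the 2P-Im libraries 33.4, 40.1, 40.7, 35.4 and 38.4 TPM. The fold was 0.19 ± 0.07 after scaling (adjusted p = 0.521) and -0.03 ± 0.09 as deposited.

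Srxn1 (chr2:152105516-152111376, plus strand), sulfiredoxin, is the repair enzyme of over-oxidised peroxiredoxins, and its promoter holds the element at the positions given above. In AppNLGF it was at 28.5 ± 2.3 TPM in wild type, 28.1 ± 2.1 in vehicle and 27.9 ± 3.7 in 2P-Im libraries. The treated fold was 0.02 ± 0.05 after scaling (-0.07 to 0.12) and -0.02 ± 0.06 as deposited (-0.14 to 0.11). With the separate transcript rows described below added to the gene row it was -0.09 ± 0.10 after scaling and -0.11 ± 0.08 as deposited, none of them called. In APP/TAU the scaled values were 29.0, 29.4, 28.3, 28.4 and 31.7 TPM in vehicle and 32.1, 37.3, 29.3, 30.2 and 32.5 in 2P-Im libraries. The fold was 0.13 ± 0.06 (-0.01 to 0.27, adjusted p = 0.577), with 3 of 5 treated libraries above every vehicle, and -0.09 ± 0.12 as deposited.

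Prdx1 (chr4:116685544-116700822, plus strand), a cytosolic peroxiredoxin, was at 33.9 ± 2.2 TPM in wild type, 37.0 ± 4.3 in AppNLGF vehicle and 39.9 ± 6.4 in AppNLGF 2P-Im libraries. After scaling, 11 of 13 treated libraries lay above all 4 wild type libraries, and the fold against wild type was 0.28 ± 0.09 (0.09 to 0.48, adjusted p = 0.194). Against vehicle it was 0.14 ± 0.07 after scaling (adjusted p = 0.382) and 0.10 ± 0.08 as deposited, and vehicle against wild type was 0.14 ± 0.09 and 0.12 ± 0.11. In the APP/TAU cohort the scaled treated fold was 0.16 ± 0.09 and the deposited one -0.05 ± 0.14, with overlapping groups.

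In the AppNLGF model most Prdx2 gene-row values lay below wild type without a call. Its gene (chr8:84969587-84974834, plus strand) was at 72.0 to 79.2 TPM in wild type, 64.6 to 77.7 in vehicle (median 70.2) and 58.6 to 78.5 in 2P-Im libraries (median 69.5). As deposited 9 of 11 vehicle libraries lay below every wild type library, and 7 of 11 after scaling, with folds of -0.12 ± 0.07 and -0.09 ± 0.05 (adjusted p = 1 and 0.792). Set against each other in one library, the log2 ratio of Prdx1 to Prdx2 was -1.14 ± 0.08 in wild type, -0.90 ± 0.21 in vehicle and -0.78 ± 0.16 in 2P-Im libraries, and 9 of 11 vehicle libraries lay above every wild type library. At 11 months it was -1.0 ± 0.10, -0.93 ± 0.25 and -0.84 ± 0.18, with overlapping groups. These ratios use gene rows alone. In wild type, AppNLGF vehicle and 2P-Im libraries those rows held 48.6, 49.0 and 50.2% of Prdx1 and 78.1, 70.6 and 73.5% of Prdx2. With the separate transcript rows described below added, mean Prdx1 was 70.8, 75.6 and 80.5 TPM. Mean Prdx2 was then 97.4, 99.4 and 94.1 TPM, and the ratio of these sums was not taken in each library. Prdx2 is abundant in red blood cells: the summed TPM of 6 blood markers was 85.1 to 246 in the younger wild type, 18.1 to 130 in AppNLGF vehicle and 7.79 to 135 in AppNLGF 2P-Im libraries, and the part of blood in these values was not tested.

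Prdx3 (chr19:60864051-60874556, minus strand), the peroxiredoxin of mitochondria, had the highest scaled treatment fold of the 10 genes in APP/TAU mice. Scaled wild type libraries read 38.1, 39.6, 39.3, 42.1 and 39.3 TPM, vehicle libraries 31.9, 33.1, 36.2, 30.9 and 38.9, and 2P-Im libraries 36.3, 40.6, 40.4, 36.1 and 44.9. Thus 3 of 5 treated libraries lay above every vehicle library. Vehicle against wild type was -0.21 ± 0.07 (adjusted p = 0.206) and 2P-Im against vehicle 0.21 ± 0.07 (0.07 to 0.35, adjusted p = 0.475); both folds use the same vehicle libraries. As deposited they were -0.01 ± 0.10 and -0.01 ± 0.10. In AppNLGF the scaled treated fold of Prdx3 was -0.01 ± 0.04 (-0.08 to 0.07), and its difference from the APP/TAU fold, 0.22 ± 0.07, had an adjusted p of 0.219.

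The groups overlapped for Prdx5 (chr19:6906697-6910106, minus strand) and Prdx6 (chr1:161240112-161251219, minus strand). Prdx5 was at 85.5 ± 4.5 TPM in AppNLGF vehicle and 84.2 ± 8.9 in 2P-Im libraries, and its scaled folds were 0.01 ± 0.05 in AppNLGF and 0.12 ± 0.07 in APP/TAU. Prdx6, which reduces oxidised phospholipids and is rich in astrocytes, was at 26.7 ± 0.80 TPM in wild type, 29.8 ± 4.2 in AppNLGF vehicle and 28.7 ± 7.2 in 2P-Im libraries. Its scaled folds were 0.17 ± 0.11 for AppNLGF vehicle against wild type, -0.05 ± 0.08 for treatment there, -0.22 ± 0.12 in the APP/TAU model on vehicle against wild type and 0.13 ± 0.12 for its treatment. Its scaled genotype folds differed between the cohorts by -0.39 ± 0.17 (adjusted p = 0.366).

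Txnip (chr3:96557957-96561883, plus strand) encodes an arrestin-fold protein that binds reduced thioredoxin and is induced by glucose. It varied more between libraries than most members, at 8.26 ± 1.8 TPM in wild type, 7.80 ± 2.0 in AppNLGF vehicle and 8.45 ± 1.6 in 2P-Im libraries. The treated fold was 0.15 ± 0.10 after scaling and 0.11 ± 0.11 as deposited. In APP/TAU it was at 11.1 ± 2.1 in vehicle and 9.21 ± 2.3 TPM in 2P-Im libraries, and it was the member whose scaled treated fold was below 0, -0.05 ± 0.15 (-0.36 to 0.27). After scaling 4 of 5 treated libraries lay below every vehicle library and library 5, at 14.3 TPM, above all of them.

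Over the whole set, the split of folds above and below 0 turned with the scaling in both treatment comparisons. In AppNLGF 2P-Im against vehicle 3 folds lay above 0 and 7 below as deposited (median -0.02, all genes -0.04), and 7 above and 3 below after scaling (median 0.02, all genes 0.00). In APP/TAU 2P-Im against vehicle 10 of 10 lay below 0 as deposited (median -0.09, all genes -0.19), and 9 of 10 above 0 after scaling (median 0.13, all genes 0.00). Their place among the folds of all genes did not turn there. Members other than Txnip stood at percentiles 58.7 to 89.3 as deposited and 58.5 to 92.5 after scaling, and Txnip at 29.1 and 31.9. In APP/TAU vehicle against wild type the split was 8 above and 2 below (median 0.10, all genes 0.18), and 1 above and 9 below after scaling (median -0.10, all genes 0.00). These comparisons share the vehicle libraries, so their opposite signs are not separate results.

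The other genes of the pathway were taken from lists of related function. Of 25 further thioredoxin-fold and thioredoxin system genes 23 were tested, of 12 thioredoxin clients and repair enzymes 11, of 8 selenoprotein synthesis genes 8, of 14 Txnip relatives, regulators and partners 11, and of 10 Nxn partners 10. None was called in any comparison under either scaling by limma. In AppNLGF 2P-Im against vehicle the scaled medians of these lists were -0.03, 0.00, -0.05, 0.07 and -0.01 (all genes 0.00), and in APP/TAU 0.06, 0.01, 0.04, 0.01 and 0.01 (all genes 0.00).

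Among the thioredoxin-fold genes Clic1, a redox-sensitive chloride channel protein, was at 5.14 ± 0.41 TPM (scaled) in APP/TAU vehicle and 6.58 ± 0.40 in 2P-Im libraries (n = 5 each). On these scaled values all 5 treated libraries lay above every vehicle library, a fold of 0.31 ± 0.06 with adjusted p = 0.246 by limma. Clic1 was named for its small p in the list, and the share of all genes that separate so completely is not given here. Prdx4, the peroxiredoxin of the endoplasmic reticulum, had a scaled fold of 0.23 ± 0.08 there (adjusted p = 0.504). In AppNLGF Sephs2, which makes the selenium donor for selenoproteins such as Txnrd1, had a scaled fold of -0.08 ± 0.03 (adjusted p = 0.276), and Selenop, the brain's selenium carrier, -0.13 ± 0.06 (adjusted p = 0.381).

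Among the Txnip relatives Arrdc3, an arrestin-domain gene, was at 14.1 ± 2.0 TPM in AppNLGF vehicle and 17.0 ± 2.5 in 2P-Im libraries after scaling, a fold of 0.26 ± 0.08 (adjusted p = 0.143). Mlxip, which encodes the glucose-responsive partner of Mlx, had 0.14 ± 0.04 (adjusted p = 0.142). Among the Nxn partners Dvl1, a Dishevelled gene, had -0.10 ± 0.08 in AppNLGF as deposited. In APP/TAU its 5 treated libraries lay below every vehicle library under both scalings, at -0.39 ± 0.11 and -0.18 ± 0.05 (adjusted p = 0.167 and 0.446 by limma). For Dvl1, too, the share of all genes that separate so completely is not given. Dvl2 stood at 0.14 ± 0.07 and the phosphatase subunit gene Ppp2ca at -0.08 ± 0.03 in AppNLGF after scaling (adjusted p = 0.416 and 0.229).

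NRF2 targets outside the members were read from a list of their own. Of 21 such genes 20 were tested. In AppNLGF 2P-Im against vehicle 1 was called higher as deposited and 4 after scaling (medians 0.06 and 0.10), against 0.0536% and 0.286% of all genes called. They were Aox1, 0.49 ± 0.09 as deposited (adjusted p = 0.0232), and after scaling Gstm1 at 0.50 ± 0.06, Ftl1 at 0.27 ± 0.04, Aox1 at 0.52 ± 0.09 and Nqo1 at 0.47 ± 0.10 (adjusted p = 0.000104, 0.000121, 0.00523 and 0.0269). In APP/TAU none was called as deposited and 2 after scaling (medians 0.00 and 0.21), against 0% and 0.0114% of all genes. The 2 were Gstm1 at 0.64 ± 0.07 and Ftl1 at 0.41 ± 0.04 (both adjusted p = 0.00117 by limma). All 5 treated libraries lay above every vehicle library for both, and so did all 13 in AppNLGF. The share of all genes that separate so completely is not given here. This list holds known targets and earlier results of these data were in view when it was drawn up, so its direction is no independent evidence. The difference between targets and members was not tested.

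Genes that varied most like each member were sought over 12383 genes, by the smaller of the within-group correlations in the 28 AppNLGF cohort and the 15 APP/TAU cohort libraries (scaled values, no test). For Txnip they were Arrdc3 (r = 0.70 and 0.80), Ikzf2 and Pdk4, and for Nxn Wnt3 (0.66 and 0.67), A2m and Acot11. For Txnrd1 they were D17H6S53E (0.73 and 0.78), Ermn and Dock5. For Srxn1 they were Rab31, Scg2 and Selenop, and for Txn1 Csf1, Tmbim1 and Alpl. Those of Prdx1 included Csdc2 and Ucp2. Prdx2 had Pja1, Fis1 and Xpc, Prdx3 Ado, Scd1 and Glrx3, Prdx5 Paip2, Atpif1 and App (0.71 and 0.78), and Prdx6 Gpr85, Vgll3 and the astrocyte transporter gene Slc1a3. Libraries share scaling and tissue composition, and these r are a description.

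How much of a gene its row holds differed strongly between members. The AppNLGF table lists 64708 single transcripts beside the gene rows. In GENCODE M21 every member transcript outside the basic set had a row of its own and no basic one did, so the gene rows appear to hold the basic set alone. The gene row held all of Txn1 and Prdx3, 80.2 to 83.2% of Txnrd1, 85.6 to 92.1% of Nxn, 57.3 to 61.8% of Srxn1, 48.6 to 50.2% of Prdx1 and 20.4 to 21.3% of Prdx6. With all its rows summed, Prdx6 was at 131 ± 12 TPM in wild type, 141 ± 11 in AppNLGF vehicle and 139 ± 17 in 2P-Im libraries, above the summed Prdx5 at 94.7 ± 5.4, 88.2 ± 6.9 and 86.0 ± 9.2. Much of it was ENSMUST00000192639, annotated for nonsense-mediated decay, at 64.4 ± 5.2, 71.2 ± 7.5 and 69.0 ± 11 TPM.

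Some of these rows changed what the gene row shows. The Prdx1 transcripts ENSMUST00000030454 and ENSMUST00000151129 replaced each other: the latter was at 0 in 2, 2 and 4 libraries of wild type, vehicle and 2P-Im, and the former in 0, 2 and 0. Their sum was 35.2 ± 9.8, 36.8 ± 4.7 and 38.7 ± 10 TPM. For Prdx2, a retained-intron transcript (ENSMUST00000127215) was at 15.0 ± 4.7 in wild type and 22.4 ± 7.4 TPM in vehicle libraries. Summed over all rows Prdx2 was at 97.4 ± 5.7, 99.4 ± 8.9 and 94.1 ± 11 TPM, and the vehicle fold against wild type was 0.03 ± 0.09 in place of -0.12. For Nxn the summed rows gave a treated fold of -0.29 ± 0.07 (adjusted p = 0.108 by limma), which was no longer called. This sum was an alternative chosen after seeing the data, and no row of the APP/TAU table analysed here is a single transcript, so the part of each gene that its rows hold was not checked in that cohort.

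**Figure D5:**
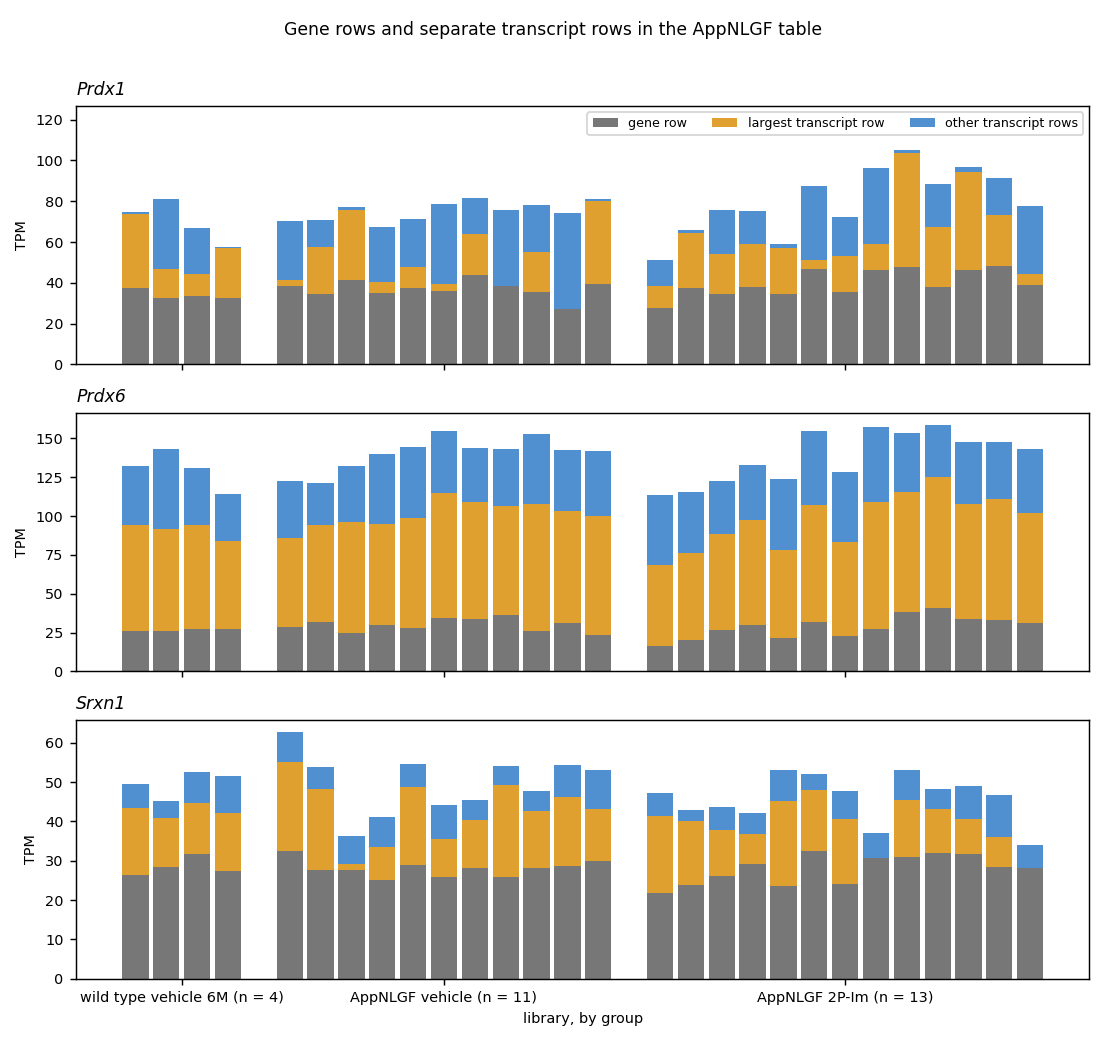
Stacked TPM of the gene row, the largest separate transcript row and the other transcript rows of Prdx1, Prdx6 and Srxn1, one bar for each AppNLGF cohort library, by group. The Prdx1 transcript rows exchange places from library to library, and the Prdx6 transcript rows exceed its gene row in every library.

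Near-identical copies took little signal: Prdx6b and Prdx6-ps2 averaged at most 0.0161 TPM, and Prdx2-rs3 and Txn-ps1 were listed at 0. Prdx2 shares 351 bases with Junb on the opposite strand (31.7 and 38.1 TPM in the AppNLGF and APP/TAU tables), Prdx5 shares 409 bases with Trmt112 on the opposite strand, and Txnip shares 3927 bases with Gm15441 on the opposite strand (0 and 0.0135 TPM). Txnrd1 shares 1305 bases with Eid3 on its own strand (1.44 and 2.23 TPM), where strand cannot tell their reads apart. No source used here says whether quantification used strand, so reads of Prdx2, Prdx5 and Txnip may not be told apart from those of their opposite-strand neighbours.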

How the data were processed

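Total RNA of 43 brain libraries was prepared with a directional library kit, per the labels. The authors deposited TPM, one table per cohort and one column per library, with Salmon and the builds GRCm38 and mm10 named in the submitters' processing notes, its version, annotation and strand setting being not given in the sources used here. TPM keep no depth, so no counting interval is possible. Groups came from the titles. Genes with a mean of at least 1 TPM were fitted as log2(TPM + 1) with limma 3.58.1 (R 4.3.3; 3 group means per table, trend moderation, two-sided, Benjamini-Hochberg over all genes), after a check on simulated data. Symbols matched 51327 rows, and positions are GENCODE M21. The alternatives were median-ratio scaling, rescaling without mitochondrial and the 20 most abundant genes, other minima and pseudocount, robust moderation, fits of 2 groups, a replicate block, a number term and omitted libraries; single number sets, summed transcript rows and marker covariates were added after seeing the data. All members are named, and from each list the called genes or, with fewer than 3, some of those with the smallest p. The members and lists were chosen with earlier results of these data known. A gene that the rule for genes most like a member names is not reported here.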

Additional observations from a re-analysis of the deposited data

Results flagged for a closer look

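In 5 of 80 sets of member values (10 genes, groups of 4 or 5 libraries, both scalings) one library stood apart from the rest by Dixon's ratio; chance alone gives about 1 in 20. Prdx5 was lowest in wild type library 2 at 6 months, 79.1 TPM as deposited against 92.2 to 93.6 in the others. Srxn1 was highest in library 3 of the same group after median-ratio scaling, 30.0 TPM against 26.4 to 27.0, and Txn1 in wild type library 2 at 11 months, 37.5 against 33.6 to 34.2. Prdx5 was lowest in APP/TAU vehicle library 4, 79.8 scaled TPM against 97.9 to 102.7, and Txnip highest in APP/TAU 2P-Im library 5, 14.3 against 7.59 to 9.09.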

How the results depend on the processing

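There were 3399 alternative values of the 60 member folds. Of these 3101 counted as the same, 238 moved, 49 lost a call, 11 gained one and 0 reversed a called direction. The same were called folds that stayed called, at any size, and uncalled folds within the SD between libraries of their main value. Uncalled folds beyond it counted as moved. This SD is wider than the SE, so an uncalled fold could change sign and still count as the same. The single call of AppNLGF 2P-Im against vehicle, Nxn, went from 1 to 0 members with median-ratio scaling (also with the replicate block), with a minimum mean of 5 TPM (which Nxn does not reach), with no minimum, without 2P-Im libraries 1 and 2, within numbers 1 to 5 or 6 and above, and with summed transcript rows (the last 3 under both scalings). With a term for numbers 1 to 5 the Nxn call was kept, also after scaling (adjusted p = 0.0499). Leaving out single libraries gave 0 to 1 members under either scaling. AppNLGF 2P-Im against wild type went from 0 to 2 members with the replicate block (Nxn, Prdx2), 4 with a term for numbers 1 to 5 and 5 with numbers 1 to 5 alone, in each case without scaling only; those fits called 3222, 5155 and 5307 of all genes. The other 4 comparisons had 0 members in every alternative.

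The replicate block gave Nxn a fold of -0.36 (adjusted p = 0.031) in AppNLGF 2P-Im against vehicle. The labels do not say that same-numbered libraries are pairs, and pairing was not tested. Same-numbered libraries correlated between -0.08 and 0.12 in AppNLGF (19 pairs, median 0.02). Other pairs there lay between -0.15 and 0.18 (220 pairs, median 0.002). In APP/TAU the ranges were -0.06 to 0.09 (15 pairs, median -0.01) and -0.09 to 0.10 (60 pairs, median -0.003). In AppNLGF 8 of 38 and in APP/TAU 10 of 30 correlated best with their own number, and no chance share was computed. All-gene counts ranged from 29 to 201 (main 47), 0 to 89 (9) and 13 to 5307 (44) in the AppNLGF comparisons of vehicle with wild type, 2P-Im with vehicle and 2P-Im with wild type, and from 3 to 14 (4), 0 to 4 (0) and 3 to 7 (4) in those of APP/TAU. The causes were not tested. Depth is unknown, so its part in the spread of low genes such as Nxn was not tested.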
